A study of Mus musculus with 5 samples.

Results

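Gene expression in a hybrid of embryonic stem (ES) cells and hepatoma cells was compared between 7 days of differentiation, EHeD7, and the undifferentiated hybrid, EHe. The comparison rests on 2 of the 5 arrays of the series, with 1 array for each condition, so no spread between replicates exists and no p-value is given. Every gene whose probe the scanner software called well above background on at least 1 of these arrays was compared, which gave 14729 genes out of 18370 with a named probe. The hybrid came from fusing E14, a mouse ES cell line, to Hepa1-6, a mouse hepatoma line, so that both conditions shared this origin and, by the study's methods, a near-tetraploid chromosome set, the red fluorescent and hygromycin resistance genes of the ES parent and the green fluorescent and neomycin resistance genes of the tumor parent. Only colonies with an ES-like shape had survived passaging and been expanded, each from an individual fusion, so the hybrid stands for a selected line and not for all fused cells. EHe was grown in Glasgow medium with serum replacement, a little fetal bovine serum and leukemia inhibitory factor (LIF). For EHeD7, the labels describe single cells plated on gelatin and kept as a monolayer in a glucose-rich medium that held fetal calf serum and no added LIF, while the methods of the study describe embryoid bodies in a serum replacement medium without naming the array samples. Time in culture, loss of LIF, serum and glucose therefore changed together and cannot be told apart. The remaining arrays were of the parents, ES and Hepa1-6, and of the hybrid after 14 days, EHeD14.

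Mouse ES cells with LIF rest in the naive state of pluripotency, which resembles the epiblast before implantation and relies on LIF acting through STAT3 and on transcription factors such as Klf4, Esrrb and Zfp42. When LIF is removed, cells pass through a state like the epiblast after implantation, marked by Fgf5 and Otx2, and then form the primitive streak, where Wnt and Nodal signals start mesoderm and endoderm, or neural ectoderm. The primed epiblast is an epithelium that depends on FGF and activin rather than LIF and is known for strong glycolysis and weak mitochondrial respiration.

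Signals are given on a scale on which the 75th percentile of each array is 1000. A signal called dim was not well above background, and a fold against a dim signal is a lower bound, taken at the lowest signal that the software still called well above background on that array, which was 35 in EHe and 14 in EHeD7. Because probes differ in how they bind, signals are compared between arrays and not between genes. By that call, 56.9% of probes were well above background in EHe and 67.6% in EHeD7, and the SD that spot noise alone gives to a log2 difference was 0.12. Markers of the parents were checked on both arrays. The signal of Pou5f1 (Oct4), the central pluripotency factor, was 16520.1 in EHe and 21191 in EHeD7, against a dim 10.5 in Hepa1-6. The hepatoma markers Alb, Afp, Ttr and Apoa1 were not well above background in EHe or EHeD7, whereas Alb and Afp gave 67211 and 110095 in Hepa1-6, where Ttr and Apoa1 were dim as well. Of 9 fibroblast or feeder markers, 5 were well above background in EHe and 6 in EHeD7, their summed signal was 1102 and 4942, and Dcn, Lum and Fap were dim on both arrays. Of 7 leukocyte markers, 4 were well above background on each array, with sums of 1228 and 1769, and the defining markers Ptprc and Adgre1 were dim.

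After 7 days, 1047 genes were more than 3-fold higher than in EHe, 7.11% of those compared, and 643 were more than 3-fold lower, 4.37%. These shares are the background against which the gene lists below are read. The lists were chosen with earlier results of these data known, so a share above the background describes them and is no independent support. Among them, 209 genes were more than 10-fold higher and 130 more than 10-fold lower. Most genes moved little, since 11569 (78.5%) lay within 2-fold and the median log2 difference was -0.02. Of the higher genes 292 were lower bounds, as were 123 of the lower genes. A gene dim in EHe entered through EHeD7 alone and could not come out lower, and a gene dim in EHeD7 could not come out higher. Another probe of the same gene had been compared for 304 higher and 150 lower genes, and it too was past 3-fold in the same direction for 169 and 110 of them. Only 1 gene, among the higher ones, had another probe past 3-fold in the opposite direction. Just past the threshold lay Ltbp2 (3.002-fold higher) and Srxn1 (3.01-fold lower), and just short of it Cd164l2 (2.99-fold higher) and Gadd45a (2.99-fold lower).

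**Figure D1:**
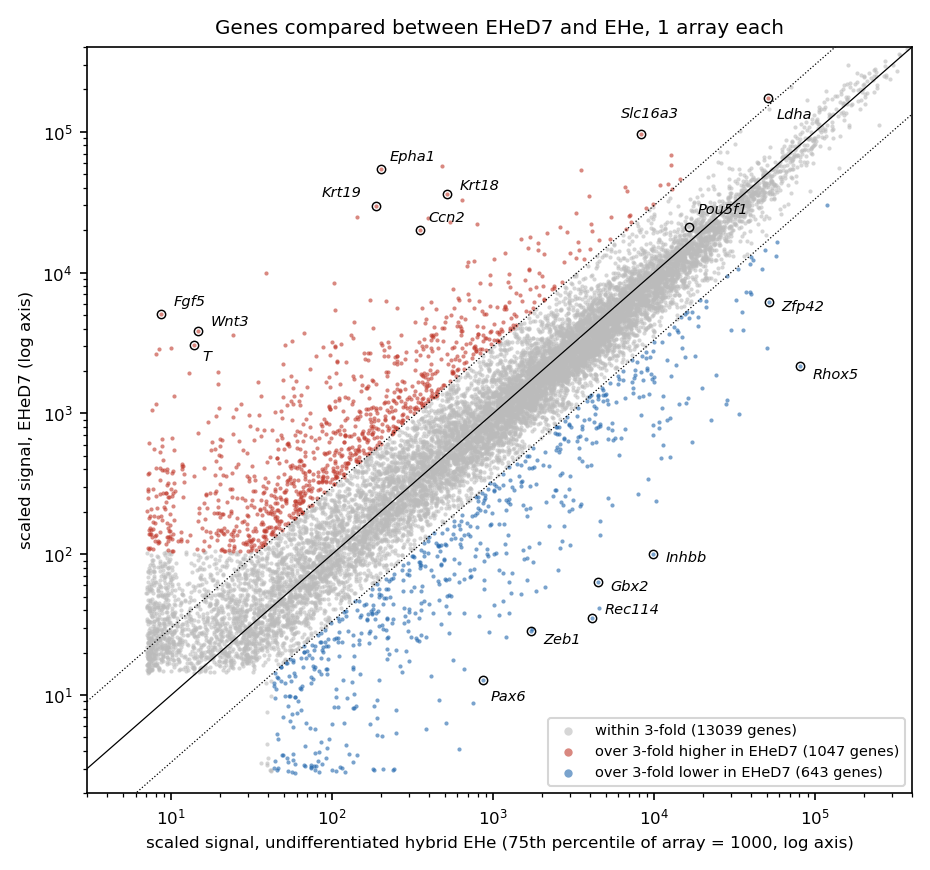
Scaled signal of each compared gene in EHeD7 (vertical axis) against EHe (horizontal axis), both on log axes, with 1 array per condition and dotted lines at 3-fold. Most of the 14729 genes lie along the diagonal, with 1047 above the upper line and 643 below the lower line.

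By chromosome, between 5.58% and 9.27% of the genes of each autosome were past 3-fold higher and between 2.97% and 5.16% past 3-fold lower. The X chromosome lay at the upper end of the first range and above the second. Of its 521 genes, 9.21% were higher and 8.25% were lower. Only 3 genes of the Y chromosome were compared. Ddx3y, an RNA helicase gene, gave 180.3 in EHe and a dim 2.99 in EHeD7, at least 12.9-fold lower, and Eif2s3y, a translation factor gene, gave 609 in EHe and a dim 4.15 in EHeD7, at least 43.5-fold lower. Gm20747 gave a dim 7.63 in EHe and 22.7 in EHeD7. Ddx3y and Eif2s3y were thus bright in EHe and dim in EHeD7. On the other hybrid array, EHeD14, Eif2s3y was a dim 5.52, and in ES it gave 69. Whether the chromosome content of these cultures differed was not tested. Ddx3y and Gm20747 were named after their values were seen, to cover the chromosome. In bulk samples like these, fewer cells of a kind and less RNA per cell cannot be told apart, here or for any gene below.

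The largest rise was that of Epha1, a receptor for ephrin ligands, which went from 200.3 in EHe to 54387 in EHeD7, 271-fold. The fibronectin domain gene Fndc3c1 gave 38.7 in EHe and 9977 in EHeD7, 258-fold higher. Npy, the precursor of the secreted neuropeptide Y, gave 142 in EHe and 24969 in EHeD7, 176-fold higher. All 3 were well above background on both arrays, so these are measured folds. Trh, which encodes thyrotropin-releasing hormone, a marker of the early post-implantation epiblast, gave 482 in EHe and 56725 in EHeD7, 118-fold higher. Arl4c, a small GTPase gene, gave 393 in EHe and 24317 in EHeD7, 61.9-fold higher. The other 10 of the 15 largest rises belong to the lists below: the keratins Krt19 and Krt18, the claudin Cldn6, the ligands Fgf5, Wnt3, Cxcl12 and Fst, the enzyme Enpp2, the immunoproteasome subunit Psmb8 and the mesoderm factor T.

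The 15 largest falls included 1 gene of the naive list and 1 of the germline list. Rec114, the germline gene, which takes part in the formation of meiotic DNA breaks, gave 4089.8 in EHe and 35.4 in EHeD7, 116-fold lower. Ak7, an adenylate kinase, gave 4524 in EHe and 41.4 in EHeD7, 109-fold lower, and Inhbb, a subunit of activin B, gave 9836 in EHe and 101.1 in EHeD7, 97.3-fold lower. All 3 were well above background on both arrays. Gbx2, a homeobox gene of the naive network, was 71.4-fold lower, at 4497 in EHe and 63 in EHeD7. The eye field genes Pax6 and Vax2 were at least 61.3-fold lower and 59.5-fold lower. For Pax6 the signals were 859.9 in EHe and a dim 12.8 in EHeD7, and for Vax2 they were 1739 in EHe and 29.2 in EHeD7. Zeb1, a repressor of epithelial genes, gave 1716 in EHe and 28.4 in EHeD7, 60.3-fold lower. Usp26 (at least 53.6-fold lower), Crisp1 (at least 43.3-fold lower), Rhox5 (37.6-fold lower), Xlr5a (at least 36.6-fold lower) and Fkbp6 (35.7-fold lower) are genes of the testis, of the epididymis or of the germline. In the tumor parent Hepa1-6, Crisp1 gave 12776 and Rhox5 70588, while Usp26, Xlr5a and Fkbp6 were dim. In ES, Crisp1 was a dim 17.7 and Rhox5 gave 50839. Myo1f, a myosin, gave 1194 in EHe and 25.9 in EHeD7, 46.1-fold lower. Aqp3, a water and glycerol channel, gave 10237 in EHe and 237 in EHeD7, 43.3-fold lower. Eif2s3y of the Y chromosome, given above, was the other gene among them.

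The gene lists were grouped as lineage (16 lists), signalling (16) and metabolism (11). Of 239 lineage genes compared, 66 (27.6%) were past 3-fold higher and 40 (16.7%) past 3-fold lower. Of 312 signalling genes, 80 (25.6%) were higher and 23 (7.37%) lower. Of 302 metabolic genes, 23 (7.62%) were higher and 12 (3.97%) lower, close to the 7.11% and 4.37% of all genes. Lists and their median log2 differences are descriptions, and nothing was tested over them.

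Genes of the naive state were lower nearly without exception, with 13 of the 14 compared past 3-fold lower, none past 3-fold higher and a median log2 difference of -3.69. Zfp42 (Rex1), a classical naive marker, gave 51469.6 in EHe and 6155 in EHeD7, 8.36-fold lower. Esrrb, a nuclear receptor of the naive network, gave 16235 in EHe and 1291 in EHeD7, 12.6-fold lower. Klf4, a factor that LIF maintains, gave 49982 in EHe and 2894 in EHeD7, 17.3-fold lower. The relatives Klf5 and Klf2 were 5.15-fold and 5.42-fold lower, although another probe of Klf2 was only 1.35-fold lower. Tbx3, a T-box factor downstream of LIF, was 26.8-fold lower at 9175 in EHe and 342 in EHeD7. Nr0b1 (Dax1) was 22.6-fold lower, Nr5a2 15.7-fold lower, Tcl1, a cofactor of the kinase AKT, 13.7-fold lower, Tfcp2l1 5.28-fold lower and Spic at least 6.02-fold lower. Zscan4c, expressed in the rare cells of ES cultures that resemble the embryo at the onset of its own transcription, gave 876 in EHe and 65.9 in EHeD7, 13.3-fold lower. The exception was Dppa3 (Stella), at 470.3 in EHe and 378 in EHeD7, within 1.24-fold of EHe. No naive gene was dim in EHeD7 apart from Spic.

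Of 12 genes from the core of the pluripotency network, which naive and primed cells share, 9 stayed within 3-fold. Pou5f1 was 1.28-fold higher, Sall4 within 1.08-fold of EHe, Utf1 1.47-fold higher and the RNA-binding protein gene Lin28a 2.09-fold higher. The Nodal co-receptor gene Tdgf1 and the chromatin-associated genes Dppa4 and Dppa2 lay between 1.06-fold and 1.94-fold lower. Sox2, the partner of Oct4 on DNA, gave 11119 in EHe and 3207 in EHeD7, 3.47-fold lower, and Gdf3, a growth factor of the TGF-beta family, 5974 in EHe and 1621 in EHeD7, 3.69-fold lower. In the opposite direction, Foxd3, a forkhead factor of the epiblast, gave 85.1 in EHe and 841 in EHeD7, 9.89-fold higher. Nanog and L1td1 had no named probe.

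Of 12 genes of the primed epiblast, 6 were past 3-fold higher, with 1 past 3-fold lower and a median log2 difference of 1.56. Fgf5, the standard marker of this state, gave a dim 8.66 in EHe and 5057 in EHeD7, at least 144-fold higher. Otx2, a homeobox factor that opens the epiblast program, gave 687 in EHe and 11153 in EHeD7, 16.2-fold higher, and its probe was printed on 10 spots. Fgf15 was 28.5-fold higher at 73 in EHe and 2078 in EHeD7. Dnmt3b, a DNA methyltransferase of the post-implantation embryo, gave 4057 in EHe and 22292 in EHeD7, 5.49-fold higher, whereas Dnmt3a was 1.58-fold higher. Pou3f1 (Oct6) was 5.21-fold higher and the Wnt effector gene Lef1 3.43-fold higher. Zic2 was the exception, with 135 in EHe and 22.8 in EHeD7, 5.91-fold lower.

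Genes of the primitive streak, the site where mesoderm and endoderm arise, included several that were dim in EHe and bright in EHeD7. Of 13 compared, 7 were past 3-fold higher and none past 3-fold lower, with a median log2 difference of 2.36, itself a lower bound. Of these values 8 were bounds. A gene dim in EHe was compared only because of EHeD7 and could not come out lower, so the filter in part fixed the lack of lower genes. T (Brachyury), the defining streak factor, gave a dim 13.9 in EHe and 3074 in EHeD7, at least 87.8-fold higher. Eomes, a T-box factor of streak and trophoblast, gave 96.2 in EHe and 1540.3 in EHeD7, 16-fold higher. Wnt3, the ligand that starts the streak, gave a dim 14.6 in EHe and 3871 in EHeD7, at least 111-fold higher. These 3 genes were also high in EHeD14, at 3275, 1511 and 2982. Hand1 was at least 27.5-fold higher, Fgf8 8.76-fold higher, Snai1, a repressor of Cdh1 during gastrulation, at least 5.47-fold higher and the organizer gene Gsc at least 5.12-fold higher. The genes of the next step, the formation of early and paraxial mesoderm, stayed low. Tbx6 was 2.66-fold higher, and Mesp1 and Msgn1 gave 30.6 and 26.6 in EHeD7. Mixl1, Evx1 and Cdx1 were not well above background on either array.

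Endoderm genes split. Of 16 compared, 5 were past 3-fold higher and 2 past 3-fold lower. The higher genes were those of basement membrane and of the absorbing surface of visceral endoderm. Col4a1 was 9.87-fold higher at 569 in EHe and 5617 in EHeD7, Lamb1 7.4-fold higher, the endocytic receptor genes Amn and Cubn 4.99-fold and 3.62-fold higher, and the adaptor gene Dab2 5.81-fold higher on its brighter probe, while the other gave no bound above 1-fold. The transcription factors of endoderm differed less. Sox17 gave 64.2 in EHe and 129.8 in EHeD7, 2.02-fold higher, Gata6 234 in EHe and 349.8 in EHeD7, 1.5-fold higher, and Foxa2 a dim 8.23 in EHe and 42.2 in EHeD7, at least 1.2-fold higher. Gata4 gave 46.2 in EHe and 35 in EHeD7. Sox7 was 8.07-fold lower and the laminin gene Lama1 3.55-fold lower. Foxa1 and Cer1 were not well above background on either array. Probes of Hnf4a disagreed, at least 1.47-fold higher on 1 and at least 9.87-fold lower on the other.

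Neural genes were no more often higher than lower, with 2 and 4 of 15 past 3-fold. Sox1, the earliest marker of neural ectoderm, gave 147 in EHe and 64.9 in EHeD7, 2.26-fold lower. Pax6, named above, was dim in EHeD7. Nes (nestin), an intermediate filament of progenitor cells, gave 3261 in EHe and 12748 in EHeD7, 3.91-fold higher, and Zic1 85.9 in EHe and 817 in EHeD7, 9.51-fold higher. Of genes of neurons, Tubb3, a neuronal tubulin, gave 5133 in EHe and 789.9 in EHeD7, 6.5-fold lower, Dcx was at least 4.74-fold lower and the adhesion gene Ncam1 20.6-fold lower. Of the 6 Ncam1 probes, another was 22.6-fold lower, but 1 was 1.38-fold and 1 at least 1.4-fold higher. Neurog2 and Olig2 were dim in EHe and at 24 and 31.4 in EHeD7. The bHLH gene Hes5 stayed at 4306 in EHe and 4523 in EHeD7. Sox11 counted as within 3-fold, at 2.54-fold higher on the probe used for it. Its other probes were between 3.81-fold and 6.21-fold higher, so this count depended on the probe.

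Simple epithelial keratins gave some of the largest differences of the comparison. Of 14 genes in the list of trophoblast and simple epithelium, 8 were past 3-fold higher and 1 lower, with a median log2 difference of 3.07. Krt19 gave 186 in EHe and 29835 in EHeD7, 160.4-fold higher. Krt18 gave 517 in EHe and 36076 in EHeD7, 69.8-fold higher, and its partner Krt8 641 in EHe and 32527 in EHeD7, 50.7-fold higher. Keratins are obligate heteropolymers of a type I and a type II chain, and for this pair both chains were higher together. Of all 26 keratin genes compared, 5 were past 3-fold higher and 3 past 3-fold lower, with a median log2 difference of 0. Among all genes these shares were 7.11% and 4.37%. The keratin family was counted after its values had been seen. Krt7 was 45-fold higher at 49.8 in EHe and 2241 in EHeD7. The trophoblast and surface ectoderm factor Gata3 was at least 18.2-fold higher and the placental homeobox gene Esx1 4.39-fold higher, while Cdx2 and Elf5, which define trophoblast stem cells, gave only 18.5 and 19 in EHeD7. Tfap2c, a factor shared by trophoblast, germ cells and naive cells, was 14-fold lower, at 9831 in EHe and 704 in EHeD7. Hand1 and Eomes stand in this list and in that of the streak.

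Genes of smooth muscle and of the actin cytoskeleton were higher as a group, 10 of 18 past 3-fold and none past 3-fold lower, with a median log2 difference of 1.77. Cnn1 (calponin) gave 105 in EHe and 2942 in EHeD7, 28.1-fold higher. Myl9, the regulatory light chain of smooth muscle myosin, gave 179 in EHe and 4063 in EHeD7, 22.7-fold higher, and Tagln (SM22) 764 in EHe and 12013 in EHeD7, 15.7-fold higher. Zyx, a protein of focal adhesions, was 15.2-fold higher at 3529 in EHe and 53582 in EHeD7. Cald1 was 9.25-fold higher, Cnn2 7.0-fold higher, Tpm1 6.7-fold higher, Tpm2 4.49-fold higher, Des 3.63-fold higher and Lmod1 3.19-fold higher. Acta2, the smooth muscle actin, gave 12805 in EHe and 12731 in EHeD7 on its brightest probe, while a dimmer probe gave 134.7 and 1082, 8.04-fold higher, so its direction depended on the probe. Myh11, the myosin of mature smooth muscle, gave only 36.6 in EHeD7. Genes of heart and skeletal muscle were within 3-fold in 11 of 12 cases, among them Nkx2-5 (127 in EHe and 324 in EHeD7) and Myh6 (160.4 in EHe and 389.7 in EHeD7), and Tnnt2 gave 15.6 in EHeD7. Acta1 was at least 3.89-fold higher.

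Promoters from the RefSeq table (GRCm38.p6) were searched in the 250 bases before the start, on both strands, for the letters GGAATG, which TEAD factors are known to bind. Of 15 promoters of the smooth muscle and actin list, 46.7% held the letters, against 14.4% of all 27025 promoters and 13.1% of 11723 promoters of compared genes. They stood before Tpm1, Cald1, Lmod1, Acta2, Vcl, Flna and Mylk, of which 3 were past 3-fold higher. The share was larger in heart and skeletal muscle genes, 63.6% of 11, which were mostly within 3-fold. Windows of Tpm1 and Cald1, both higher in EHeD7, and of Ccn1, a matrix protein gene described with TGF-beta below, are shown because they carry the letters, with these or their reverse complement in capitals.
Tpm1, chr9:67049224-67049323 (- strand): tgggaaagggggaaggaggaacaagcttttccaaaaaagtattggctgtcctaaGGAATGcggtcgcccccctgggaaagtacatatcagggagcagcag
Cald1, chr6:34598304-34598403 (+ strand): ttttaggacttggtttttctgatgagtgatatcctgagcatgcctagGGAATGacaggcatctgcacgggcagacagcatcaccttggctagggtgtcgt
Ccn1, chr3:145650036-145650135 (- strand): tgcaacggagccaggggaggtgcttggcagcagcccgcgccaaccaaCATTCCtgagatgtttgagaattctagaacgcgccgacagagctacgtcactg

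Of 10 genes of blood and endothelium, Cd34 (3.83-fold higher) and Etv2 (3.07-fold higher) were past 3-fold higher, and Pecam1, an adhesion molecule of endothelium that ES cells also express, gave 399 in EHe and 44 in EHeD7, 9.07-fold lower. Kdr, Cdh5, Tie1 and Lmo2 were not well above background on either array. In the list of epithelial-mesenchymal transition, 7 of 18 genes were past 3-fold higher and 3 past 3-fold lower, and the epithelial members were on the higher side. The tight junction genes Cldn6 and Cldn7 gave 103 in EHe and 8366 in EHeD7, 81.4-fold higher, and 795 in EHe and 22234 in EHeD7, 28-fold higher. Ocln was 4.88-fold higher, and Epcam and Cdh1 (E-cadherin) were 2.97-fold and 2.63-fold higher, short of 3-fold. The mesenchymal members pointed both ways. Vim (vimentin) gave 39578 in EHe and 11477 in EHeD7, 3.45-fold lower, Snai2 170.2 in EHe and 23.4 in EHeD7, 7.26-fold lower, and Zeb1 was among the largest falls, whereas Snai1 was at least 5.47-fold higher and Twist1 2.79-fold higher. Cdh2 (N-cadherin) gave 41.7 in EHe and 28.9 in EHeD7. Cd44, a hyaluronan receptor, was at least 9.12-fold higher on its brightest probe, and S100a6 8.91-fold higher.

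Extracellular matrix genes were higher in 15 of 31 cases and lower in 2, with a median log2 difference of 1.301. Of the 31, 27 had a difference above 0, against 42.8% of all genes. Bounds made up 9 of these values, against 1964 of all 14729 genes. A gene dim in EHe could not come out below 0, so the filter in part fixed this count. The fibrillar collagen gene Col1a1 gave 55.5 in EHe and 1227 in EHeD7, 22.1-fold higher on its brightest probe, and 1 further probe was at least 2.86-fold higher. Col1a2 gave 119 in EHe and 630.1 in EHeD7, 5.31-fold higher. The basement membrane collagens Col4a1 and Col4a2 were 9.87-fold and 8.58-fold higher, Col18a1 3.02-fold higher and the laminin gene Lama5 5.13-fold higher. Col6a1 was at least 15.1-fold higher. Genes for enzymes that cut or cross-link matrix were higher too: the protease gene Mmp2 gave 348 in EHe and 3206 in EHeD7, 9.2-fold higher, Mmp9 was at least 5.75-fold higher and Loxl2 4.58-fold higher. The inhibitors split, with Timp3 12.1-fold higher and Timp1 3.02-fold lower. Fn1 (fibronectin) was 2.06-fold lower and Tnc at least 4.18-fold lower. Sparc stayed at 35476 in EHe and 36542 in EHeD7. Col1a1 and Col1a2 are also among the fibroblast markers, of which Pdgfrb (6.92-fold higher) and Thy1 (3.5-fold higher) were past 3-fold higher as well. The sum of these markers moved from 1102 to 4942, with Dcn, Lum and Fap dim in both, and the part of fibroblast-like cells in the matrix result was not tested. Among 15 integrin genes, Itga3 (383 in EHe and 3029.9 in EHeD7), Itga8 and Itga1 were past 3-fold higher, although 1 other probe of Itga3 and the other probes of Itga1 gave less. The fibronectin receptor chains Itga5 and Itgb3 were 2.92-fold and 2.47-fold lower.

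Of 15 genes of hepatocytes with a named probe, 7 were not above background on either array, among them Alb, Afp and Ttr. Of the 8 compared, Rbp4, a retinol carrier, gave 302 in EHe and 1044 in EHeD7, 3.45-fold higher, against 165288 in Hepa1-6, and Ahsg was 4.05-fold lower. Apoe was bright at 113827 in EHe and 90616 in EHeD7. Germline and meiosis genes were past 3-fold lower in 7 of 21 cases and higher in 2. Stra8, a retinoic acid target that precedes meiosis, gave 17116 in EHe and 626 in EHeD7, 27.4-fold lower. Dazl, an RNA-binding protein of germ cells, gave 715 in EHe and 77.6 in EHeD7, 9.22-fold lower, and Ddx4 (Vasa) 975 in EHe and 1739.9 in EHeD7, 1.79-fold higher. The chromosome axis genes Hormad1 and Smc1b were 17.9-fold and 7.66-fold lower, Tex11 4.09-fold lower and Asz1 at least 4.05-fold lower. Tex15 and Tdrd1, which act in the silencing of transposons, were 11.4-fold and 11.1-fold higher. Hox genes, which pattern the trunk, gave no value past 3-fold higher. Of 39 listed, 19 were not above background on either array and 17 were compared, of which 3 were past 3-fold lower. Among these, Hoxa4 was at least 3.8-fold lower and Hoxb7 3.76-fold lower.

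**Figure D2:**
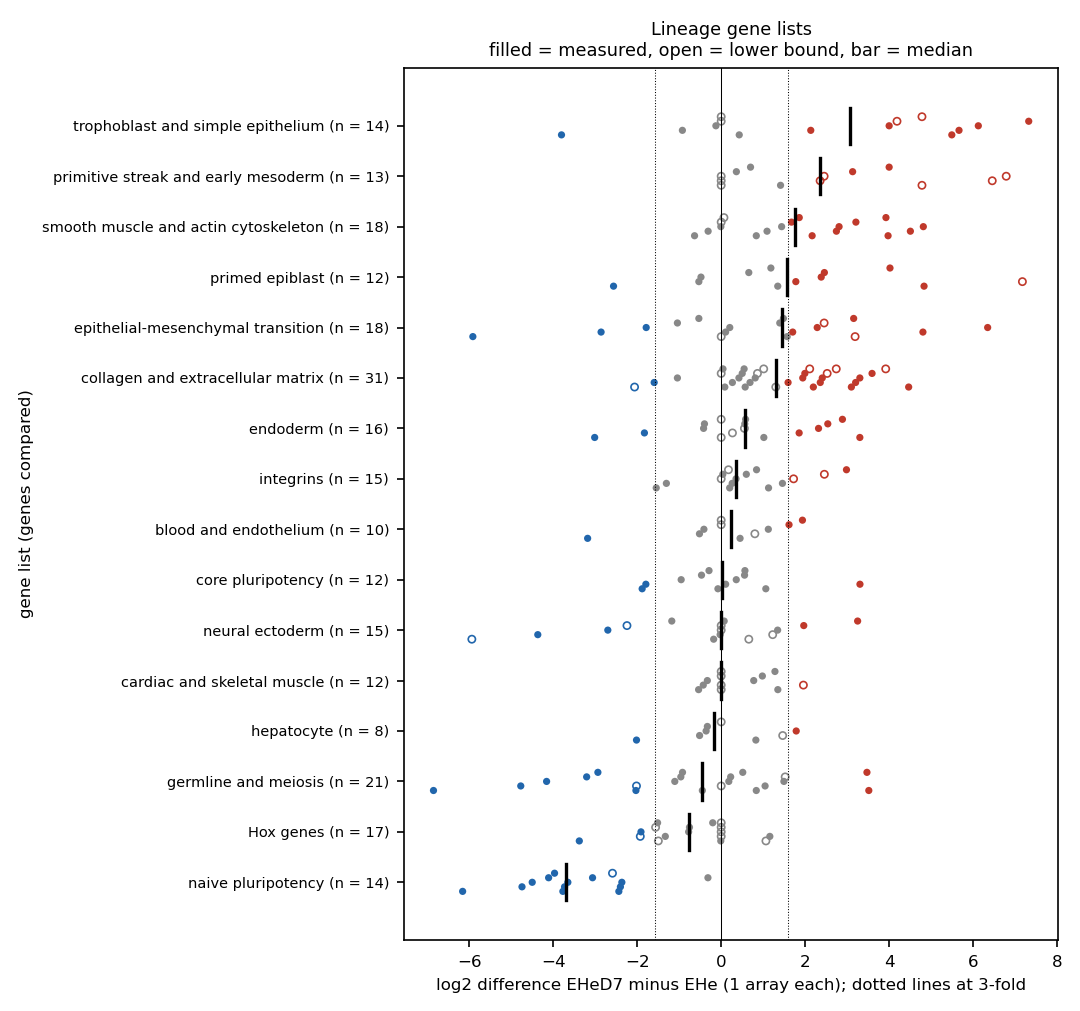
Log2 difference between EHeD7 and EHe (horizontal axis, 1 array each) for each compared gene of the lineage lists, with filled points as measured values, open points as lower bounds, red and blue past 3-fold and a bar at the list median. The naive list lies to the left with 13 of 14 genes past 3-fold lower, and the lists of trophoblast and simple epithelium, primitive streak, smooth muscle and primed epiblast lie to the right.

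Of the FGF pathway, 4 of 26 genes were past 3-fold higher and 1 lower. Of the higher genes, 3 were ligands: Fgf5 and Fgf15 (above), and Fgf8, which gave 95.9 in EHe and 840.2 in EHeD7, 8.76-fold higher on its brightest probe and at least 2.38-fold higher on another. Fgf1 was at least 9.67-fold lower. Fgf4 had no named probe. None of the receptors was past 3-fold, with Fgfr1 1.99-fold higher and Fgfr2 2.03-fold lower. Targets of FGF and ERK signals gave no common direction. Dusp4, a phosphatase that acts on ERK, gave 374 in EHe and 3362 in EHeD7, 8.98-fold higher, while Dusp6, Spry2, Spry4 and Etv5 lay within 1.21-fold of EHe. In the Nodal and activin list, 2 of 16 genes were higher and 3 lower. The ligand gene Nodal gave 12109 in EHe and 42709.7 in EHeD7, 3.53-fold higher, while its inhibitors and targets Lefty1 and Lefty2 were 5.06-fold and 1.77-fold lower, with Lefty1 at 32191 in EHe and 6359.9 in EHeD7. Fst (follistatin), which captures activin, gave a dim 8.03 in EHe and 2655 in EHeD7, at least 75.9-fold higher. Inhbb, the activin B subunit, was 97.3-fold lower on its brightest probe and 1.95-fold lower on another. Foxh1, a partner of the Smad proteins, gave 4016 in EHe and 4593 in EHeD7.

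The TGF-beta list had 10 of 21 genes past 3-fold higher and 1 lower, with a median log2 difference of 1.23. All ligand genes were higher. Tgfb1 gave 181 in EHe and 924 in EHeD7, 5.1-fold higher, Tgfb2 a dim 10.4 in EHe and 174 in EHeD7, at least 4.98-fold higher, and Tgfb3 628 in EHe and 4851 in EHeD7, 7.72-fold higher. The genes of the latent binding proteins, which hold these ligands in the matrix, were higher for Ltbp3 (4.32-fold), Ltbp1 (3.72-fold) and Ltbp2 (3.0-fold), and Ltbp4 was 2.14-fold lower. For Ltbp3 and Ltbp1 these are the brightest probes. Another probe of Ltbp3 was only 1.29-fold higher, and another of Ltbp1 at least 1.04-fold higher. The receptor and Smad genes stayed within 3-fold, with Tgfbr1 1.29-fold higher, Tgfbr2 1.51-fold higher, Smad3 2.01-fold higher and Smad4 within 1.19-fold of EHe. Of the targets, Ccn2 (Ctgf) gave 350.4 in EHe and 20106 in EHeD7, 57.4-fold higher, and its relative Ccn1 (Cyr61) 419 in EHe and 3523 in EHeD7, 8.41-fold higher. The window shown above for Ccn1 carries 1 run of the TEAD letters, which stood in only 1 of 12 promoters of this list (8.33%), and no promoter entry was at hand for Ccn2. Pmepa1, a feedback inhibitor, was 4.11-fold higher and the matrix gene Thbs1 at least 4.31-fold higher on its brightest probe. Other targets gave no rise past 3-fold: Smad7 gave 1185 in EHe and 1073 in EHeD7, and Tgfbi was 4.14-fold lower.

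Of 20 genes of the BMP list, 3 were past 3-fold higher and 1 lower. The ligand gene Bmp4 gave 969 in EHe and 508 in EHeD7, 1.91-fold lower, and Bmp8b a dim 16.4 in EHe and 265 in EHeD7, at least 7.56-fold higher. Bmp1, a procollagen protease and not a BMP ligand despite its name, gave 222 in EHe and 1959 in EHeD7, 8.83-fold higher on its brightest probe. The Id genes, targets of BMP and inhibitors of bHLH factors, went both ways. Id1 gave 545 in EHe and 254 in EHeD7, 2.15-fold lower, Id3 5583 in EHe and 4179 in EHeD7, 1.34-fold lower, and Id2 219.6 in EHe and 811 in EHeD7, 3.69-fold higher. The inhibitory Smad6 was 4.59-fold lower.

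In the Wnt list, 17 of 43 genes (39.5%) were past 3-fold higher, with 1 lower and a median log2 difference of 0.80. Of the ligand genes, 9 were among them. Wnt3 led (above), and Wnt8a, another ligand of the streak, gave a dim 8.92 in EHe and 468 in EHeD7, at least 13.4-fold higher. Wnt4 was 6.61-fold higher, Wnt11 6.38-fold higher, Wnt10a at least 5.78-fold higher, Wnt6 5.31-fold higher, Wnt9a 4.46-fold higher, Wnt7a 4.42-fold higher and Wnt5b 3.89-fold higher. Wls, the carrier that brings Wnt proteins to the cell surface, gave 454 in EHe and 2931 in EHeD7, 6.45-fold higher, while Porcn, the enzyme that adds their lipid, was 2.43-fold lower. Of 10 Frizzled receptor genes, Fzd2 (1798 in EHe and 6199 in EHeD7) and Fzd1 (175 in EHe and 562 in EHeD7) were past 3-fold higher. In the opposite direction, Fzd5 was 2.72-fold lower on the probe used for it and 6.98-fold lower on another. Some direct targets of beta-catenin were past 3-fold higher, while Nkd1 was 2.19-fold higher on its brightest probe and Lgr5 was dim on both arrays. Sp5 gave 100.2 in EHe and 3189 in EHeD7, 31.8-fold higher, Axin2, a feedback inhibitor, a dim 17.2 in EHe and 114 in EHeD7, at least 3.25-fold higher, and Lef1 84.4 in EHe and 289.5 in EHeD7, 3.43-fold higher. Among secreted inhibitors, Dkk1 was at least 3.99-fold higher and Dkk3 4.02-fold higher, whereas Sfrp1 gave 2906 in EHe and 634 in EHeD7, 4.58-fold lower, and Sfrp2 6095 in EHe and 3754 in EHeD7, 1.62-fold lower. Tcf7l1, the repressing member of the Tcf family, was 1.67-fold lower.

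In the list of LIF and STAT3, 3 of 15 genes were past 3-fold lower and 1 higher, with a median log2 difference of 0.15. Socs3, the feedback inhibitor of the LIF receptor, gave 35250.2 in EHe and 5254 in EHeD7, 6.71-fold lower, Bcl3 22544 in EHe and 897 in EHeD7, 25.1-fold lower, and Socs2 8572 in EHe and 1732 in EHeD7, 4.95-fold lower. Stat3 itself was 2.23-fold lower, the receptor genes Lifr and Il6st were 1.78-fold higher and within 1.23-fold of EHe, and Socs1 was the 1 gene past 3-fold higher, at 1135 in EHe and 3849.7 in EHeD7. In the Notch list, Notch3 gave 1183 in EHe and 13824 in EHeD7, 11.7-fold higher, and the ligand gene Jag2 1089 in EHe and 3653 in EHeD7, 3.35-fold higher. The target Nrarp was at least 3.63-fold higher, but the targets Hes1, Hey1 and Hes5 lay within 1.1-fold of EHe, and Notch4 was 9.15-fold lower. In the Hedgehog list no gene of 12 was past 3-fold higher. Gli2, a transcription factor of the pathway, gave 1145 in EHe and 73.3 in EHeD7, 15.6-fold lower, and Hhip, its target and ligand trap, 81.4 in EHe and a dim 3.41 in EHeD7, at least 5.81-fold lower. The ligand genes Shh and Ihh were not well above background on either array.

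The retinoic acid list had 3 of 17 genes higher and 2 lower. Dhrs3, which turns retinal back to retinol, gave 53.5 in EHe and 613 in EHeD7, 11.5-fold higher. Rarb, a receptor gene that is itself a target of retinoic acid, gave 132 in EHe and a dim 12.4 in EHeD7, at least 9.42-fold lower. Stra8, lower too, stands in this list and in that of the germline. The enzyme that makes retinoic acid in the embryo, Aldh1a2, was 1.84-fold lower. Cyp26a1, which degrades it, was 2.48-fold higher.

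Of the EGF receptor family and its ligands, 2 of 12 genes were higher and 1 lower. Egfr gave 271 in EHe and 1710.1 in EHeD7, 6.32-fold higher on its brightest probe, and its ligand Tgfa 61.7 in EHe and 334 in EHeD7, 5.41-fold higher, while the ligand Hbegf was 3.19-fold lower. In the list of PDGF, VEGF and KIT genes, 5 of 17 were higher and 2 lower. Flt1, a receptor of VEGF, gave a dim 20.2 in EHe and 662 in EHeD7, at least 18.9-fold higher on its brightest probe, Nrp2, a co-receptor, 412 in EHe and 6164 in EHeD7, 15-fold higher, and the ligand Pgf 145 in EHe and 546 in EHeD7, 3.76-fold higher. Kit and its ligand Kitl were 4.02-fold and 4.17-fold lower. Vegfa was 2.4-fold lower. Of 16 genes of IGF and insulin signalling, 5 were higher and 1 lower. Irs1, the substrate of the insulin receptor, was 9.45-fold higher, Igf1r gave 381 in EHe and 1459.5 in EHeD7, 3.83-fold higher, and the ligand Igf2 70.3 in EHe and 284 in EHeD7, 4.04-fold higher. Grb10, an inhibitor of these receptors, gave 2865 in EHe and 941 in EHeD7, 3.04-fold lower.

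Immediate early genes, which serum and growth factors induce through ERK and the serum response factor, were past 3-fold higher in 8 of 19 cases and lower in none, with a median log2 difference of 1.198. Egr1 gave 551 in EHe and 2897 in EHeD7, 5.26-fold higher, Ier5 499 in EHe and 4480.3 in EHeD7, 8.98-fold higher, and Btg2 958 in EHe and 5745 in EHeD7, 6.0-fold higher. Ier3 was 4.37-fold higher and Jun 3.78-fold higher. Fos, Fosl1 and Myc lay at the threshold, at least 3.02-fold, at least 3.02-fold and 3.02-fold. Srf stayed at 2099.6 in EHe and 2478 in EHeD7, and Junb at 7987 in EHe and 9934 in EHeD7. Ier2 was 2.52-fold lower. The serum of the medium changed with the condition, and its part in these values cannot be told apart from that of differentiation.

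Among Eph receptors and ephrins, 5 of 16 genes were higher and 1 lower. Epha1 led all genes, and the receptor gene Ephb6 was at least 3.37-fold higher. Of the ligands, Efna5 gave 245 in EHe and 2503 in EHeD7, 10.2-fold higher and Efnb2 519 in EHe and 2657 in EHeD7, 5.12-fold higher on their brightest probes, and Efna1 128 in EHe and 472 in EHeD7, 3.67-fold higher. The receptor gene Epha4 was 7.01-fold lower and Epha2 stayed at 6358 in EHe and 5766 in EHeD7. The chemokine Cxcl12 gave a dim 9.94 in EHe and 2916 in EHeD7, at least 83.3-fold higher on its brightest probe and at least 3.88-fold on another, while its receptor Cxcr4 gave a dim 33.3 in EHe and 21.5 in EHeD7. Genes of lysophosphatidic acid signalling pointed in both directions: the enzyme that makes this lipid, Enpp2 (autotaxin), gave a dim 8.38 in EHe and 2865 in EHeD7, at least 81.9-fold higher, and the receptor genes Lpar6 and Lpar4 87.6 in EHe and 2943 in EHeD7, 33.6-fold higher, and 442 in EHe and 3686 in EHeD7, 8.34-fold higher. The receptor gene Lpar1 was 1.47-fold lower, and Plpp3, a phosphatase that removes the lipid, 7354 in EHe and 1512 in EHeD7, 4.86-fold lower.

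Genes of antigen presentation and of the interferon response pointed both ways. Of 24 compared, 6 were past 3-fold higher and 2 lower. Higher were genes of the peptide pathway to MHC class I: the immunoproteasome subunits Psmb8 (a dim 24.1 in EHe and 3627 in EHeD7) and Psmb9 (4.14-fold higher), the peptide transporters Tap1 (62.7 in EHe and 1137 in EHeD7) and Tap2 (at least 7.34-fold higher), and the loading factor Tapbp (3.73-fold higher). The class I chains themselves were short of 3-fold, with B2m 2.35-fold higher, H2-D1 1.93-fold higher and H2-K1 1.75-fold higher. Of the antiviral genes, Ifitm3 gave 40974 in EHe and 12311 in EHeD7, 3.33-fold lower, and Oas1a 295 in EHe and 87 in EHeD7, 3.39-fold lower. Bst2 (tetherin), which also marks pluripotent cells, gave 6557 in EHe and 40486 in EHeD7, 6.17-fold higher. The interferon-stimulated response element, here GAAA, any 2 bases and GAAA again, on either strand, stood in 28.6% of 21 promoters of this list, against 3.46% of all promoters and 3.01% of those of compared genes. Of the 6 genes that held it (Bst2, B2m, Isg15, Stat2, Oas1a and Ifitm2), Bst2 was past 3-fold higher and Oas1a lower. The window of Bst2 is shown because it carries the letters in overlapping runs, in capitals.
Bst2, chr8:71537553-71537652 (- strand): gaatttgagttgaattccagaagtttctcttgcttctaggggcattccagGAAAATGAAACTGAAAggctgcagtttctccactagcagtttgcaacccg

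**Figure D3:**
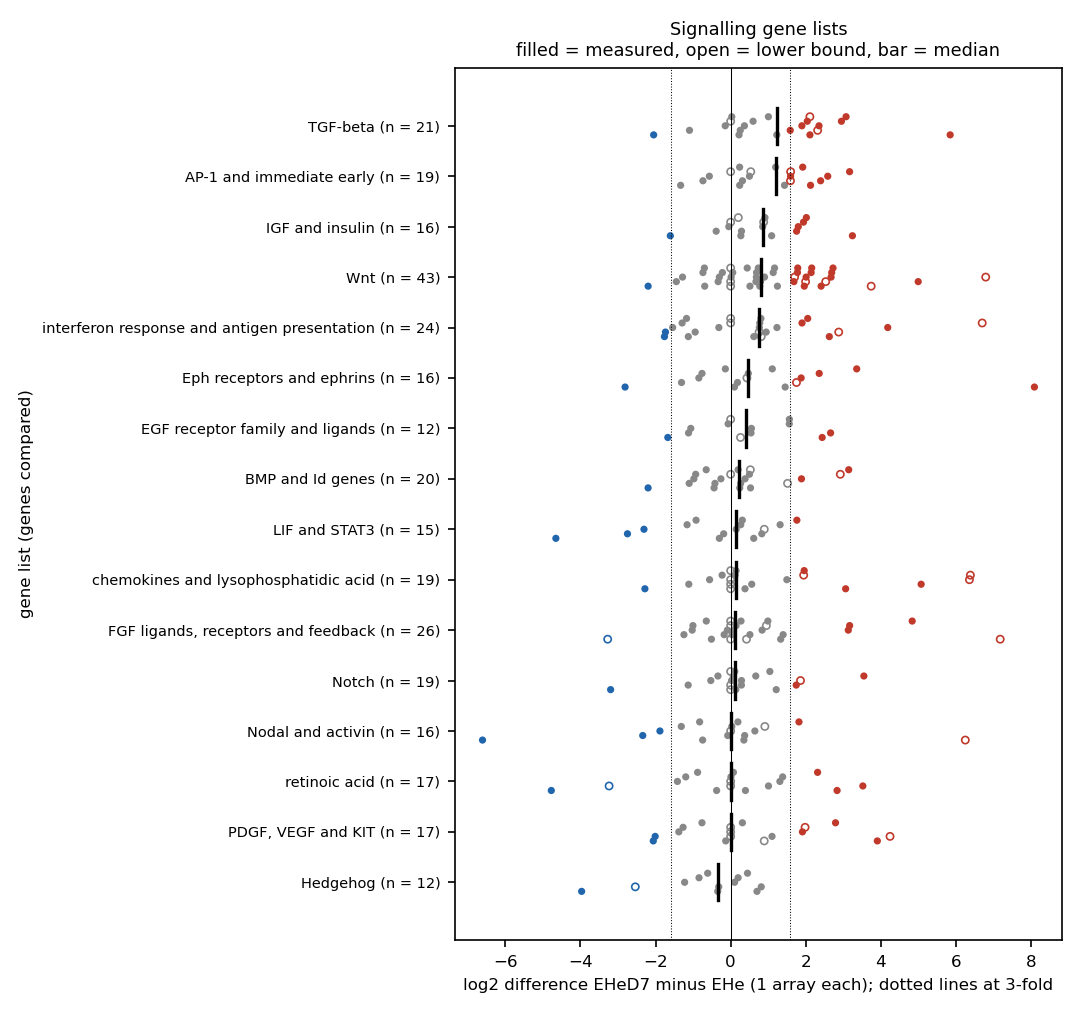
Log2 difference between EHeD7 and EHe (horizontal axis, 1 array each) for each compared gene of the signalling lists, drawn as for the lineage lists. The lists of TGF-beta, AP-1 and immediate early, IGF and Wnt genes have medians above 0, with 17 of 43 Wnt genes past 3-fold higher, and Epha1 is the point farthest to the right.

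Metabolic genes moved less, and glycolysis and respiration lay on opposite sides of 0. Of 28 genes of glycolysis and lactate, 5 were past 3-fold higher and none lower, and the median log2 difference was 0.80. Of the 28, 24 lay above 0, against 42.8% of all genes. After median centring of the arrays, which lowers all differences by 0.18, 19 stayed above 0. Slc16a3 (MCT4), which exports lactate, gave 8336 in EHe and 96117 in EHeD7, 11.5-fold higher. Ldha, which makes lactate from pyruvate, gave 50967 in EHe and 174652 in EHeD7, 3.43-fold higher, and Pfkfb3, an activator of phosphofructokinase, 405 in EHe and 2037 in EHeD7, 5.03-fold higher on its brightest probe. Eno2 was 5.87-fold higher, Pfkl 3.06-fold higher, and Tpi1 and Pgk1 2.96-fold and 2.92-fold higher. The entry steps differed little: the glucose transporters Slc2a1 and Slc2a3 gave 72318 in EHe and 79226 in EHeD7, and 48471 in EHe and 63105 in EHeD7, Hk2 was within 1.12-fold of EHe and Gapdh within 1.09-fold of EHe. The core of the hypoxia response element, ACGTG on either strand, stood in 48.1% of 27 promoters of this list, against 18.5% of all and 23.7% of those of compared genes. It was also common elsewhere, in 66.7% of 18 germline promoters. Among all genes past 3-fold higher, 21.7% of 778 promoters held it, and among those past 3-fold lower 19.03% of 494. Both shares lay below that of compared genes. Whether hypoxia had a part in the glycolysis values was not tested. Windows of Slc16a3 and Ldha, the export and synthesis of lactate, and of Pgk1, a classical target of hypoxia, show the letters or their reverse complement in capitals.
Slc16a3, chr11:120948967-120949066 (+ strand): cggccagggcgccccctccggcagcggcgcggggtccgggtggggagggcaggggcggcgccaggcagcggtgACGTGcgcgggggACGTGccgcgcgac
Ldha, chr7:46845634-46845783 (+ strand): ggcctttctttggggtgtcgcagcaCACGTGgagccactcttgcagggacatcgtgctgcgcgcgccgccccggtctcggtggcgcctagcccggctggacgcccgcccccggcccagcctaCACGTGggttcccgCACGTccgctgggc
Pgk1, chrX:106186900-106186999 (+ strand): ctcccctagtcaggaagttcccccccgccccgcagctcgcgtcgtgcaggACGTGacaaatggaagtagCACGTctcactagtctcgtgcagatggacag

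Genes of the tricarboxylic acid cycle and respiratory chain gave 40 values, none past 3-fold, with 37 below 0 against 51.2% of all genes and a median log2 difference of -0.43. The count below 0 was 38 after median centring, 34 after quantile and 33 after cyclic loess normalization. Of all genes, 60.2%, 49.2% and 45.7% lay below 0 under these settings. Cs (citrate synthase) gave 43888 in EHe and 32451 in EHeD7, Ndufs1 of complex I 32285 in EHe and 21853 in EHeD7, and Sdhb of complex II 13363 in EHe and 7993 in EHeD7. Uqcrc1 of complex III was 1.53-fold lower, Cox5b of complex IV 1.46-fold lower and Atp5a1 of the ATP synthase 1.38-fold lower. The coactivator gene Ppargc1b, which drives mitochondrial genes, was 2.92-fold lower. Each of these is a small difference without replicates, and the list is described by its count. In gluconeogenesis and the pentose phosphate pathway the 1 gene of 14 past 3-fold was Fbp1, fructose-bisphosphatase, at 610.3 in EHe and 6375 in EHeD7, 10.4-fold higher, while its relative Fbp2 was 2.38-fold lower and G6pdx 1.31-fold higher.

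Cholesterol synthesis and uptake pointed lower, with 24 of 27 genes below 0, against 51.2% of all genes, and a median log2 difference of -0.51. Only Abca1, which exports cholesterol, was past 3-fold, at 567 in EHe and 92.7 in EHeD7, 6.12-fold lower. Srebf2, the regulator of the pathway, was within 1.13-fold of EHe. Of 36 genes of fatty acid metabolism, Cpt1a alone was past 3-fold. This enzyme, which admits fatty acids to mitochondria, gave 9088 in EHe and 2017 in EHeD7, 4.51-fold lower, whereas the isoform Cpt1c was 2.82-fold higher. Fasn stayed at 72932 in EHe and 63846 in EHeD7.

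Threonine, serine, glycine and folate metabolism, on which mouse ES cells depend, gave 4 of 25 genes higher and 3 lower. Tdh, the threonine dehydrogenase that marks these cells, was 1.38-fold higher, at 38976 in EHe and 53776 in EHeD7, and Gldc 1.95-fold higher. Among the lower genes were Psph, the last enzyme of serine synthesis, at 13908 in EHe and 3914 in EHeD7, 3.55-fold lower, and the mitochondrial folate enzyme Mthfd2, at 4986 in EHe and 1346 in EHeD7, 3.7-fold lower. Higher were Cbs, which draws homocysteine towards cysteine (412 in EHe and 1784 in EHeD7, 4.33-fold higher), the folate enzymes Aldh1l1 (3.9-fold higher) and Mthfd2l (at least 3.79-fold higher), and Bhmt2 (at least 8.01-fold higher). Among amino acid transporters, Slc38a3, a carrier of glutamine, gave 88.4 in EHe and 905 in EHeD7, 10.2-fold higher, the glutamate carrier Slc1a3 147 in EHe and 1035 in EHeD7, 7.02-fold higher, and Slc38a5 225 in EHe and 1015 in EHeD7, 4.51-fold higher. The glycine carrier Slc6a9 gave 4245 in EHe and 867 in EHeD7, 4.9-fold lower.

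Genes of defence against oxidants were past 3-fold lower in 5 of 33 cases and higher in 2. Nqo1, a quinone reductase, gave 6577 in EHe and 1293 in EHeD7, 5.09-fold lower, the glutathione peroxidase Gpx1 117731 in EHe and 30043 in EHeD7, 3.92-fold lower, and the mitochondrial superoxide dismutase Sod2 58289 in EHe and 16475 in EHeD7, 3.54-fold lower. Gsta4 was 3.32-fold lower and Srxn1 3.01-fold lower. Of the 2 higher genes, Mgst1 gave 216 in EHe and 1322 in EHeD7, 6.12-fold higher and Gpx8 663 in EHe and 2274 in EHeD7, 3.43-fold higher. The glutathione synthesis genes Gclc and Gclm stayed within 1.24-fold of EHe. Of 26 genes of nucleotide and polyamine synthesis, only Upp1 was past 3-fold, at 88.2 in EHe and 338 in EHeD7, 3.83-fold higher. In metal and vitamin handling 5 of 19 were higher and 1 lower. Slc39a8, an importer of zinc, manganese and iron, gave a dim 19.6 in EHe and 1956 in EHeD7, at least 55.9-fold higher on its brightest probe and at least 3.86-fold on another. Slc40a1 (ferroportin), the iron exporter, gave 78.9 in EHe and 2551 in EHeD7, 32.4-fold higher, and Heph, the oxidase that works with it, a dim 10.3 in EHe and 139 in EHeD7, at least 3.97-fold higher. The iron importer Tfrc stayed at 6797 in EHe and 5386 in EHeD7, and Ttpa, the vitamin E carrier, was 3.54-fold lower. Of 24 cytochrome P450 genes, Cyp39a1, a sterol hydroxylase, gave 95.6 in EHe and 532 in EHeD7, 5.56-fold higher, and Cyp2s1 552 in EHe and 1999 in EHeD7, 3.62-fold higher, while the liver genes Cyp2e1 and Cyp7a1 were not well above background on either array. None of 19 proliferation genes was past 3-fold. Mki67 gave 28778 in EHe and 30685 in EHeD7, and Pcna 69194 in EHe and 53114 in EHeD7, and E2f1 was 2.08-fold lower. Of the 19, 16 lay below 0, but 13 did after quantile and 11 after cyclic loess normalization, and 18 after median centring. The shares of all genes below 0 were 51.2%, 49.2%, 45.7% and 60.2% in the same order.

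**Figure D4:**
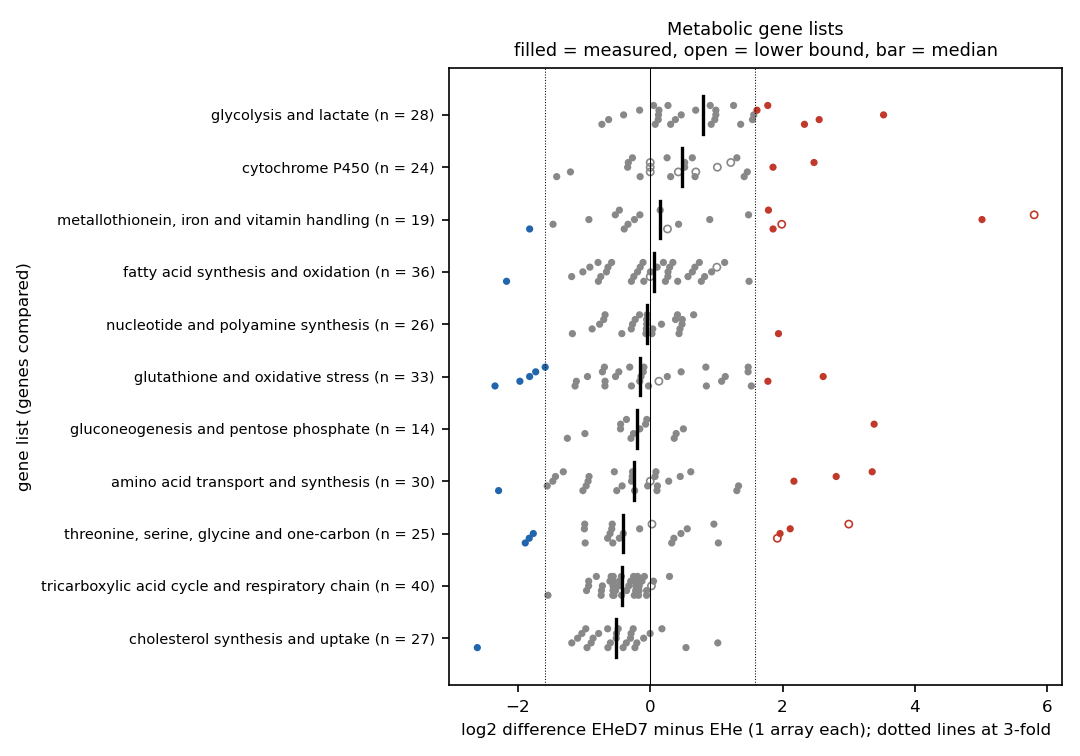
Log2 difference between EHeD7 and EHe (horizontal axis, 1 array each) for each compared gene of the metabolic lists, drawn as for the lineage lists. Glycolysis and lactate genes lie mostly to the right of 0 and respiratory chain genes in a narrow band to the left, with no respiratory chain gene past 3-fold.

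The 7-day values can be read beside those of the other arrays, which share the reference EHe or a slide with them. Krt19 was at 29835 in EHeD7 and 36795 in EHeD14, Epha1 at 54387 and 43823, and Slc16a3 at 96117 and 95426. Some naive genes were lower in EHeD14 than in EHeD7. Esrrb gave 1291 in EHeD7 and 139.7 in EHeD14, Klf4 2894 and 1193, and Gbx2 63 and a dim 21.6. Psmb8 gave 3627 in EHeD7 and 11740.5 in EHeD14, and Bst2 40486 and 57175, while Ldha gave 174652 and then 104727. EHe was not always like its ES parent before differentiation. Otx2 was at 4979 in ES and 687 in EHe, Krt18 at 2584 and 517, and Pax6 at 41.5 and 859.9. The 7-day signal of Otx2 was thus nearer to ES than to EHe in fold terms, and the EHe signal of Pax6 stood above that of the other 4 arrays. Hepa1-6, on another slide, shared the bright keratins and Ccn2 (Krt18 205931, Ccn2 90593), but not Krt19 (35.7), Epha1 (165), Cldn6 (a dim 6.66), T (a dim 5.58) or Slc16a3 (65.1).

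**Figure D5:**
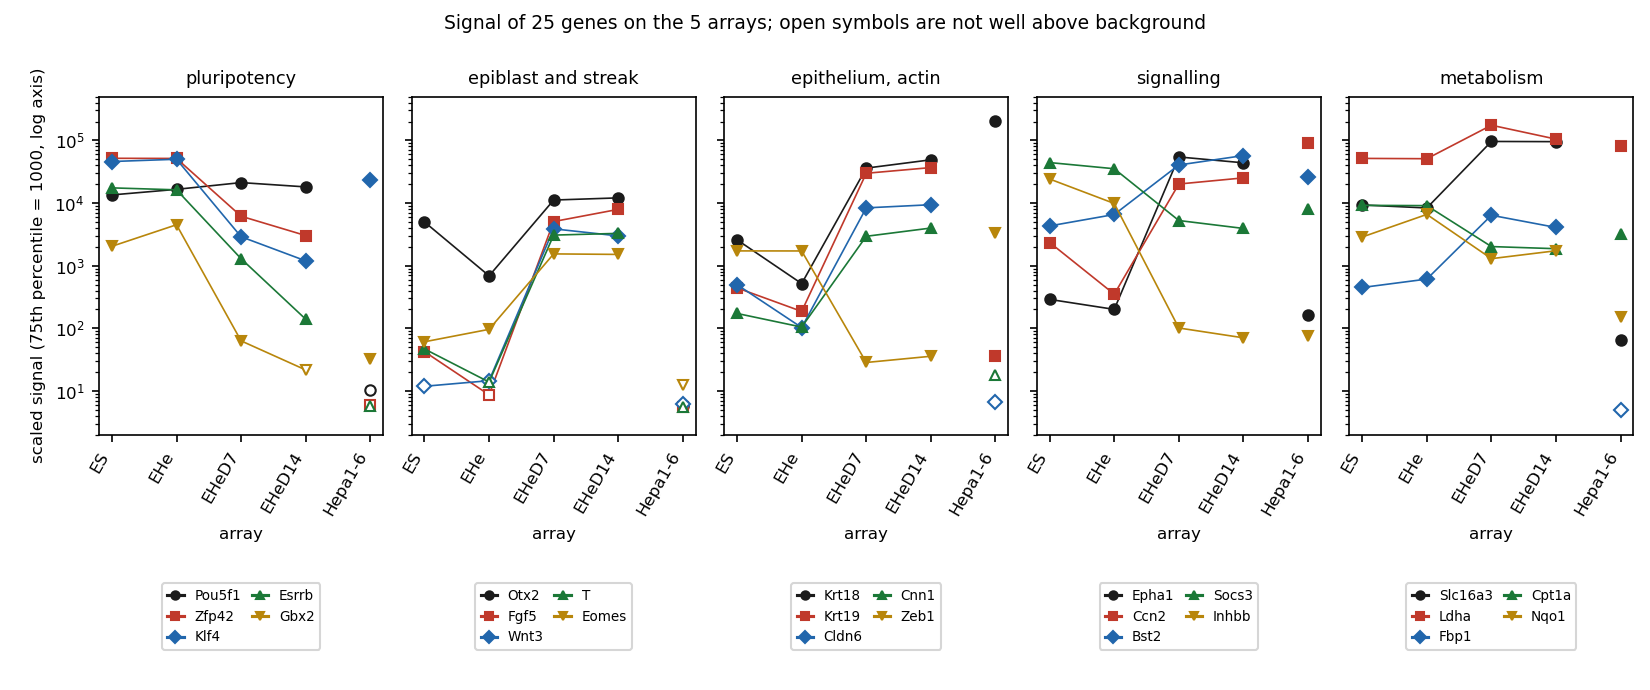
Scaled signal (log axis, 75th percentile 1000) of 25 genes on the 5 arrays, with open symbols for signals not well above background and lines joining the 4 arrays of 1 slide. Pou5f1 stays near its EHe level in EHeD7 while Zfp42, Klf4, Esrrb and Gbx2 drop, and Krt19, Epha1, Fgf5, Wnt3 and T are bright in EHeD7 and EHeD14 and low in ES and EHe.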

How the data were processed

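The labels describe 5 Agilent 1-colour mouse oligo arrays, of which EHe and EHeD7 were compared. The authors deposited the scanner output of Agilent Feature Extraction 10.7.3.1 with 45018 spots per array. Its processed signal is an intensity from which the software had removed background and spatial trends, and the arrays had not been normalized to each other. The value table that they also deposited held the same intensity values. The dye was Cy3 by the labels but Cy5 by the study's methods. EHe and EHeD7 were hybridized on 1 slide.

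Control and outlier spots were left out, no spot was saturated, and the log2 intensity was shifted by each array's 75th percentile (1289 in EHe, 1307 in EHeD7) and the spots of each probe were averaged. Of 41174 probes, 27029 were named, 26888 through RefSeq accessions and 141 through Entrez identifiers of a supplementary list, and 14145 were left without a name. A gene is given by its compared probe with the highest mean level over the 5 arrays. A dim value was raised to the lowest intensity called well above background, and a gene counted when its fold or lower bound was over 3. Beside these counts stands the share of all genes. With 1 array per condition there was no test, and the number of arrays limits the precision. The procedure was tested on simulated data.

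The comparison and the gene lists were chosen with earlier results of these data known. Named were the 15 largest rises and falls, the first 3 genes and up to 6 further members past 3-fold of each list, and neighbours in the same list. Genes outside these rules, such as Ddx3y and those of the closing section, were named after their values were seen. Alternatives were quantile, cyclic loess and median normalization, normexp correction (offset 50), other treatments of dim probes, the mean of a gene's probes and a 2-fold threshold. Values were computed in R 4.3.3 with limma 3.58.1 and in Python 3.11.15 with pandas 2.3.3 and numpy 2.4.6, and drawn with matplotlib 3.10.9. The authors' lists of changed genes were not used here, and a few genes are not reported here.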

Additional observations from a re-analysis of the deposited data

How the results depend on the processing

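No paired analysis was possible because EHe and EHeD7 were each measured on 1 array. For the same reason no difference has a replicate error, and spot noise covers neither culture nor labelling. Genes higher and lower in EHeD7 numbered 1047 and 643, and came to 683 and 363 after normexp correction and to 1884 and 1276 at 2-fold. Signalling genes higher fell to 53 after normexp correction, and at 2-fold signalling genes lower came to 47, metabolic genes higher to 45 and metabolic genes lower to 30. The other counts stayed within 1.5 times under all alternatives, with 756 higher (probes well above background on both arrays) to 1452 (dim signals as measured) and 520 lower (the former) to 853 (no filter). Median centring moved the median of all genes by -0.18 on the log2 scale and the share of calls that were higher from 62.0% to 53.4%. Of 216 named genes past 3-fold, none changed direction under any alternative, 44 were under 3-fold after normexp correction, 11 after median centring (among them Etv2, Axin2, Fos, Myc, Fosl1 and Pfkl), 7 after quantile and 5 after cyclic loess normalization, 15 with a detection limit at the 5th percentile and 14 as the mean of a gene's probes (among them Dab2, Thbs1, Dkk1, Tapbp and Pfkfb3). A change of direction was hardly possible under several of these, such as median centring, which shifts values by 0.18 against a threshold of 1.58. Of the 216, only 169 had a value when probes had to be well above background on both arrays. Why normexp lowered the counts was not tested. Of 287 list genes with more than 1 compared probe, 30 had probes over 3-fold apart.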

Other observations

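Gene families outside the lists of the report were counted after their values had been seen, so they are given as values only, beside the 7.11% of all genes that were past 3-fold higher and the 4.37% past 3-fold lower. Of 17 claudin genes, which seal epithelia, 7 were higher and none lower. Beside Cldn6 and Cldn7 these included Cldn4 (49 in EHe and 671 in EHeD7, 13.7-fold higher), Cldn3 (8.44-fold higher) and Cldn5 (4.26-fold higher). Of 12 annexin genes, which encode calcium-dependent membrane proteins, 4 were higher and none lower. Anxa3 gave 66.7 in EHe and 3737 in EHeD7, 56-fold higher, Anxa1 62.6 in EHe and 1226 in EHeD7, 19.6-fold higher, and Anxa2 381 in EHe and 4651 in EHeD7, 12.2-fold higher. Of 32 ADAM and ADAMTS protease genes, 9 were higher and none lower, among them Adamts15 (9.47-fold higher) and Adam8 (9.09-fold higher). Of 11 connexin genes, 1 was higher and 3 were lower. Gja1 (connexin 43) gave a dim 27.1 in EHe and 1172 in EHeD7, at least 33.5-fold higher, whereas Gjb5 was 3.15-fold lower.

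The X-linked Rhox and Xlr families, known from testis and germ cells, pointed lower. Of 6 Rhox genes 4 were past 3-fold lower, with Rhox5 at 81069 in EHe and 2156 in EHeD7, 37.6-fold lower, and Rhox2a at 1491 in EHe and 52.1 in EHeD7, 28.6-fold lower. All 5 Xlr genes compared were past 3-fold lower, with Xlr3c at 1248 in EHe and 63.4 in EHeD7, 19.7-fold lower. Members of both families are close copies, so a value for 1 member is uncertain. Of 15 carbonic anhydrase genes, 4 were higher and 2 lower, and Car4, a membrane-bound form, gave 50.9 in EHe and 3047 in EHeD7, 59.9-fold higher. Of 8 guanylate binding protein genes, targets of interferon, 3 were higher, with Gbp2 at a dim 25.2 in EHe and 1080.2 in EHeD7, at least 30.9-fold higher. Fhl2, a LIM domain gene of muscle and heart, was at least 46-fold higher.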
